A study of Mus musculus with 12 samples.

Results

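The genes described here are 34 genes of the actin cytoskeleton, of focal adhesions and of the serum response factor SRF, whose transcripts were measured in mouse airway organoids with and without laser ablation of a few cells. They were found by gene name in the table of normalized counts, where all 34 were present among 55401 listed genes. A minimum of 10 normalized counts in at least 6 of the 12 libraries left 32 of them among the 13792 genes tested, and Myl9 and Tagln fell under it. The study asked how an airway epithelium responds to a highly local injury. Organoids were grown from airway epithelial cells of adult C57BL/6J wt mice and carried a lentiviral reporter, Histone2A-mCherry under the p63 promoter. In the ablation group (6 libraries), 10 neighboring cells per organoid were killed with a femtosecond laser, and in the control group (6 libraries) no cell was ablated. Each library came from 1 dish of 45 organoids, harvested 4.5 h after laser treatment. All organoids had been kept in medium with 10 µM Y-27632, epidermal growth factor and L-WRN supernatant until unsupplemented FluoroBrite DMEM replaced it 1 h before ablation.

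Samples of both groups carry the numbers 1, 3, 4, 5, 6 and 7, and samples of 1 number share passage (P2+14 to P2+16), culture day (14 to 20) and date, so they form 6 pairs. Pairs 1, 3 and 5 have consecutive library numbers (library set 1), as have pairs 4, 6 and 7 (library set 2). The titles of controls 4, 6 and 7 contain the word ablation, yet their numbers carry the letter C that also marks controls 1, 3 and 5, and the treatment label of all 6 reads control. Here these samples count as controls, and values without pairs 4, 6 and 7 are given below. Whether pairs came from different animals is not stated, so p-values measure the spread between these dishes. The normalized counts of a library came to 27600452 to 28247162 in the ablation group and to 27297950 to 28504390 in the control group.

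Actin filaments are assembled from actin monomers with the help of profilin, the Arp2/3 complex and vasodilator-stimulated phosphoprotein, severed by cofilin and bundled by alpha-actinins and filamins. Talin and vinculin couple them to integrins at focal adhesions, where myosin II pulls on them. Filament assembly frees the cofactors MRTF-A and MRTF-B from actin monomers, and together with SRF they turn on many cytoskeletal genes at a DNA element called the CArG box. Collective movement of epithelial cells into a wound relies on this machinery.

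Because the list includes SRF target genes, promoter windows from RefSeq on GRCm38.p6, running from 250 bases before to 50 bases after each gene start, were searched for the CArG box. This element has CC, 6 bases that are each A or T, and GG. The pattern is its own reverse complement, so a match on one strand is a match on both. Of the 34 genes, 30 had a window, and 7 of these (23.3%) held a box, against 488 of all 27025 genes in the table (1.81%). Actb, Tagln, Pxn and Cttn were not in the table. The list was drawn up partly from known SRF targets, so this share is a description. The windows around the boxes of Srf (2 boxes), Vcl, Rnd3, Actg1 and Cnn2 and of an inner promoter of Fhl2 are shown because the transcripts of these genes are described below. Myl9 is the other gene with a box, and the outer promoter of Fhl2 holds a further one. Each is given 5′ to 3′ on the strand of the gene, with boxes in capitals, and none overlaps an exon of the GENCODE annotation. They lie at chr17:46556190-46556269 (minus strand, Srf), chr14:20929148-20929205 (plus, Vcl), chr2:51149177-51149236 (minus, Rnd3), chr11:120348551-120348610 (minus, Actg1), chr10:79988519-79988578 (plus, Cnn2) and chr1:43163962-43164017 (minus, Fhl2).
Srf: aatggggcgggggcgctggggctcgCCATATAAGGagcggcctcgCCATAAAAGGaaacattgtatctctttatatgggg
Vcl: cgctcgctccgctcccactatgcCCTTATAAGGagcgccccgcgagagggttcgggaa
Rnd3: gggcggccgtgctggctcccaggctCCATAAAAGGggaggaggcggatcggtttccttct
Actg1: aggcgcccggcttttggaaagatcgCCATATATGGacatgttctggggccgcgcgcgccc
Cnn2: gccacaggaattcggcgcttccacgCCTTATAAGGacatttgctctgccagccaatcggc
Fhl2: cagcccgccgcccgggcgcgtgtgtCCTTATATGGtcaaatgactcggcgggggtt
The box of Vcl and that of Cnn2 have the same letters, and the box of Rnd3 is also the second box of Srf. Counted to the RefSeq gene start, which can differ by some bases from the GENCODE gene coordinates given below, the start of the first box lay 82 bases upstream in Srf, 227 in Vcl, 100 in Rnd3, 90 in Actg1 and 56 in Cnn2.

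The libraries had the transcripts of an epithelium. All 6 epithelial markers were expressed, with Krt5 and Krt14, keratins of basal cells, the most abundant of them (means of 276858 and 239821 normalized counts over the 12 libraries). Trp63, a transcription factor of basal cells, had 11436, 10700, 8400, 8780, 9773 and 9974 normalized counts after ablation in pairs 1, 3, 4, 5, 6 and 7, and 7810, 8928, 6559, 7747, 6443 and 7543 in the control. Krt8, a keratin of luminal cells, had 23469, 26466, 27461, 31146, 24140 and 29102 after ablation and 23308, 23746, 24511, 30502, 21477 and 26371 in the control. Both were higher in the dish labelled ablation in 6 of 6 pairs, as were 5.17% of all genes tested. Their part in the values of the list was not tested. The other 4 markers ran both ways, with Krt14 higher in 5 of 6 pairs, Krt5 and Cdh1 in 4 and Epcam in 3. None of 6 smooth muscle and myofibroblast markers reached the count minimum. Together they summed to 5.85 to 8.99 normalized counts in an ablation library and 3.83 to 8.19 in a control library. Acta2, the smooth muscle actin, was at 0 in ablation 1 and in controls 1, 3, 4 and 5, and its highest value was 3.75. Myl9 and Tagln, members of the list that are abundant in smooth muscle, were as low. Myl9, a regulatory light chain of myosin II, was at 0 in 5 libraries and at most 3.95. Tagln, which encodes the actin-binding protein SM22 alpha, was at 0 in 2 libraries and at most 5.74. Of its 1988 exon bases, 1241 overlap Gm48529 and 108 overlap Pcsk7, both on the opposite strand. By exact permutation of signs over 6 pairs (two-sided), p was 1 for Myl9 and 0.531 for Tagln. The smallest possible p was 0.0312 for Tagln and 0.125 for Myl9, which was at 0 in both dishes of 2 pairs and so could not pass. Of 7 fibroblast markers only Pdgfra reached the minimum, and the list summed to at most 42.2 normalized counts after ablation and 48.3 in the control. Endothelial markers summed to 14.3 or less, with Kdr at 0 in all 12 libraries. Leukocyte markers summed to 115 to 147 after ablation and 102 to 173 in the control, with Cd68 the most abundant.

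Actins were the most abundant transcripts of the list per length. In the control, Actb, the gene of beta-actin, had 10239 ± 1083 normalized counts per kilobase of exon (SD, n = 6), and Actg1, that of gamma-actin, had 8025 ± 850. Tagln2, the transgelin of non-muscle cells, had 5551 ± 517, and Arpc2, a subunit of the Arp2/3 complex, 5313 ± 120. The lowest of the 32 tested genes were Pxn, the gene of the adhesion scaffold paxillin, with 385 ± 24.1 normalized counts per kilobase, and Pdlim7, a LIM-domain protein of actin bundles, with 364 ± 57.3. In the order of levels per kilobase, control dishes of neighboring genes overlapped except below Actg1, Arpc2, Flna and Zyx. Srf itself was among the lower genes, with 532 ± 57.7, and overlapped with Tln1 above (590 ± 32.1) and Rhob below (519 ± 45.4). Reads of near-identical copies could be counted on some members. Only Tpm3-rs7, Actg-ps1 and Myl12b were looked up, with means of 98.9, 5.81 and 311 normalized counts, each far below its member's mean. These counts do not show how reads shared by a member and its copy were assigned.

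**Figure D1:**
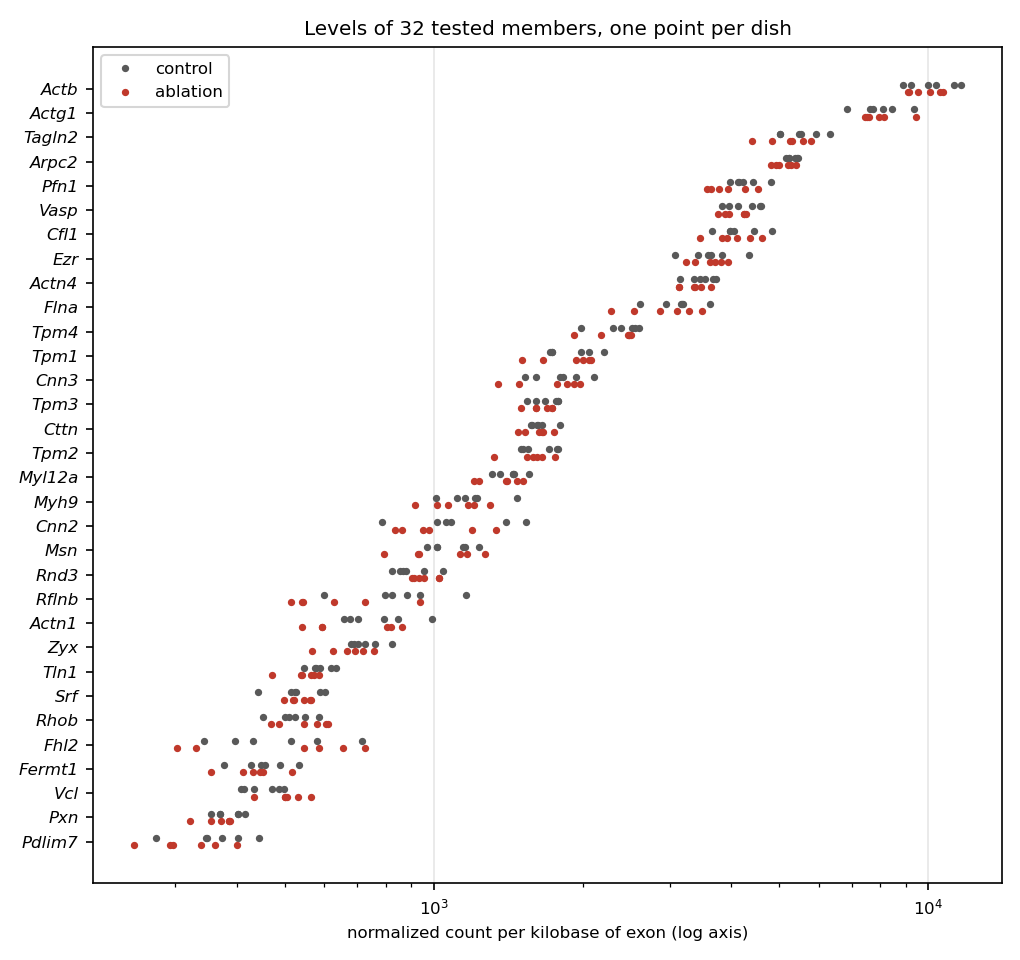
Normalized counts per kilobase of exon (log axis) of the 32 tested genes, ordered by their control mean, with 1 point per dish (gray, 6 control dishes; red, 6 ablation dishes). Levels run from 10239 for Actb to 364 for Pdlim7, and gray and red points overlap for every gene.

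Most genes of the list were slightly lower after ablation, and none differed beyond the spread between dishes in the model with condition and library set. This limma model on log2(normalized count + 1) called 0 of the 32 genes at an adjusted p-value under 0.05, against 0% of all 13792 genes. At an unadjusted p-value under 0.05, 1 gene was higher (Vcl), where 4.15% of all genes were higher, and 2 were lower (Rflnb and Tln1), where 3.7% were lower. A second model, called the paired model, has the pair as a term in place of the library set. There 0 genes of the list were called higher (0.674% of all genes) and 1 was called lower, Rflnb (0.413% of all genes). With unadjusted p-values the same threshold gave 2 genes higher, Vcl and Rnd3 (6.25% of the list, 8.78% of all genes). There were 9 lower, Rflnb, Tln1, Pfn1, Actn1, Zyx, Flna, Cnn2, Myh9 and Tagln2 (28.1% of the list, 8.86% of all genes). In a dish, fewer cells of a type and less RNA per cell cannot be told apart. Whole organoids were harvested, with 10 cells ablated in each, so a change confined to cells near the damage would be diluted. For that reason the paper expected rather small differences between treated and untreated organoids.

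By direction alone, 27 of the 32 log2 fold changes were below 0 (84.4%), against 51.5% of all genes. Their median was -0.06, against -0.0036 for all genes. With total-count scaling 26 were below 0 and with quantile normalization 25, with a median of -0.05 in both. In the pairs of library set 1 alone, which leaves out controls 4, 6 and 7, 26 were below 0. Lower values in at least 5 of 6 pairs were found for 15 genes (46.9% of the list, 18.4% of all genes). Higher values in at least 5 pairs were found for 3 genes, Vcl, Rhob and Rnd3 (9.38% of the list, 17.9% of all genes). Rflnb and Tln1 were lower in 6 of 6 pairs (6.25% of the list, 4.63% of all genes), and Vcl was higher in 6 of 6 (3.12%, against 5.17%). For no gene of the list did the ablation dishes and the control dishes fail to overlap, as they did for 0.457% of all genes. These genes belong to 1 machinery and share dishes, so they are not independent of each other.

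**Figure D2:**
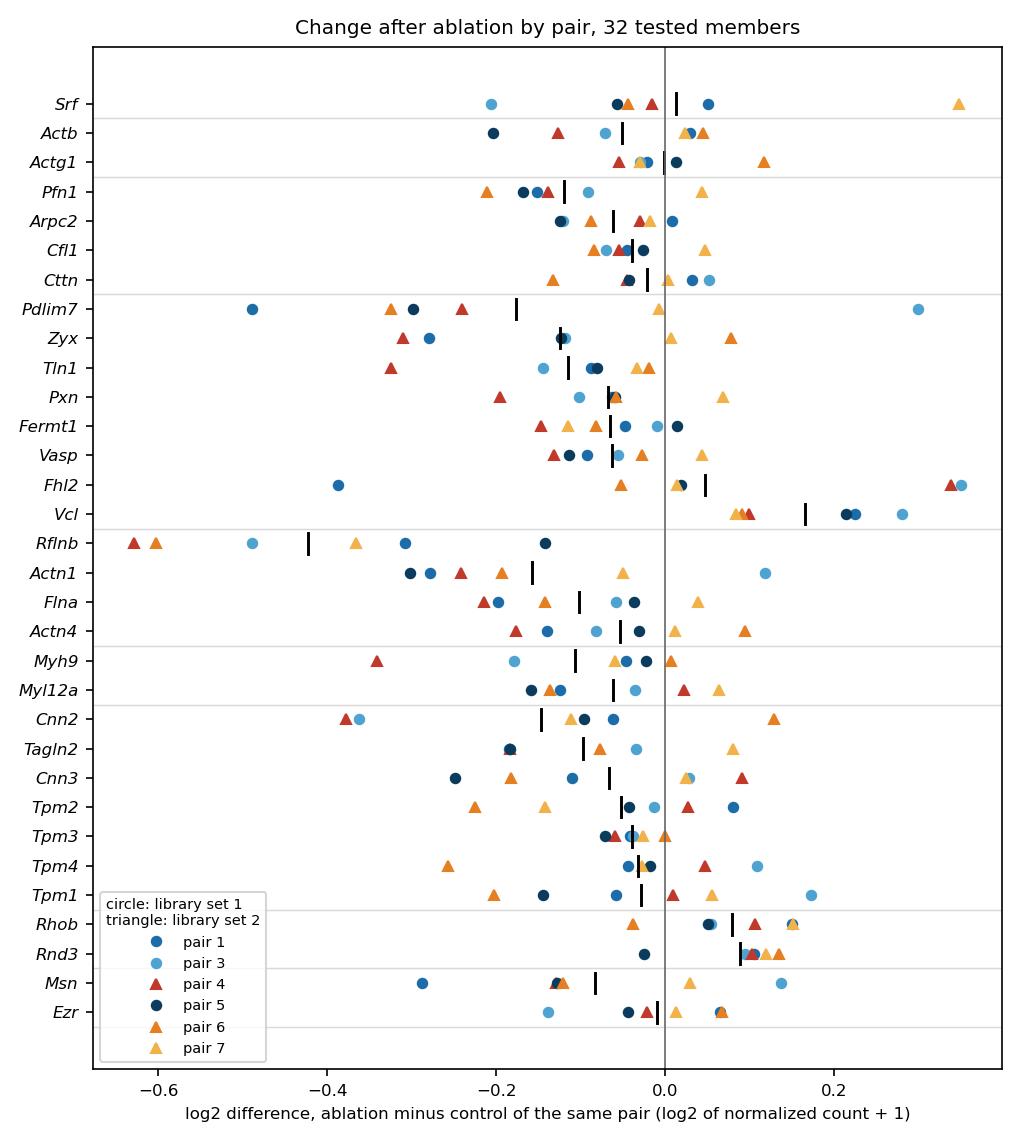
Log2 difference between the ablation and control dish of each pair (x axis) for the 32 tested genes, grouped by role between the gray lines. Circles are pairs of library set 1, triangles pairs of library set 2, and black bars the log2 fold change over all 6 pairs. Rflnb lies left of 0 and Vcl right of 0 in every pair, and most other genes have points on both sides.

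The direction varied by pair. Of the 32 genes, 23 were lower after ablation in pair 1, 21 in pair 3, 23 in pair 4, 27 in pair 5 and 22 in pair 6. In pair 7 it was 12, and 20 were higher. Among all genes tested, between 47.3% (pair 7) and 51.9% (pair 4) were lower. The median log2 difference of the list ran from -0.09 in pair 4 to 0.01 in pair 7.

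**Figure D3:**
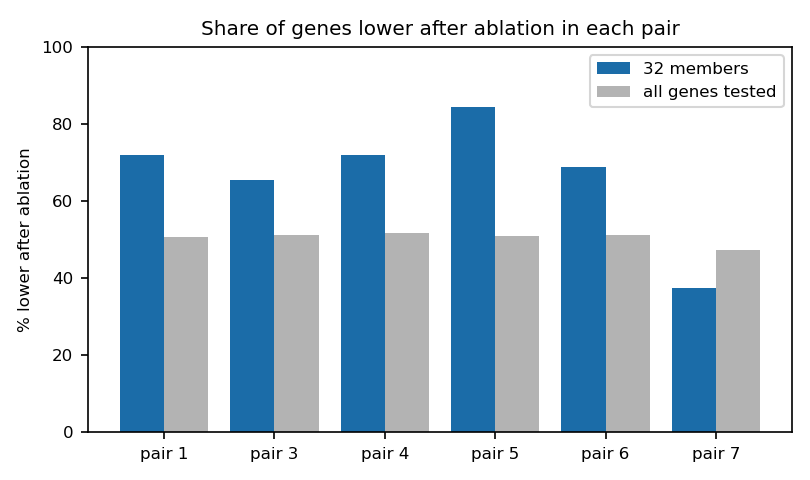
Percentage of genes that were lower after ablation in each pair, for the 32 genes (blue) and for all 13792 genes tested (gray). The list reaches 84.4% in pair 5 and 37.5% in pair 7, while all genes stay between 47.3% and 51.9%.

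Rflnb encodes refilin B, a protein that binds filamins and organizes actin bundles. It was the member with the largest change and the only one called in the paired model. In pairs 1, 3, 4, 5, 6 and 7, Rflnb (ENSMUSG00000020846.6, chromosome 11 from 76019194 to 76027782, minus strand) had 3289, 2207, 1808, 1911, 1899 and 2551 normalized counts after ablation. The control dishes had 4072, 3099, 2795, 2109, 2883 and 3288 in the same order. Every ablation dish was below the control dish of its pair, but the groups overlapped, since ablation 1 exceeded all controls except control 1 and control 5 was below 3 ablation dishes. The means were 2278 ± 566 after ablation and 3041 ± 645 in the control (SD, n = 6), a log2 fold change of -0.42. The standard error was 0.164 with the library set (limma adjusted p = 0.604) and 0.0586 with the pair (adjusted p = 0.00899). Without pair 4 the paired model gave an adjusted p-value of 0.0555, and without another pair 0.0104 to 0.0249. In library set 1 alone the log2 fold change was -0.31 (adjusted p = 0.110), with limma's plain variance model over all pairs the adjusted p-value was 0.121, and edgeR on the reads of 4 complete pairs gave 0.115.

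Filamins and alpha-actinins, which cross-link actin filaments, are the other cross-linkers of the list, and none passed the test. Actn1 (alpha-actinin-1) had 2996 to 4767 normalized counts after ablation and 3633 to 5496 in the control, with means of 3885 ± 781 and 4306 ± 709 (SD, n = 6). This is a log2 fold change of -0.16 (paired limma, adjusted p = 0.155), with 5 of 6 pairs lower. Actn4 (alpha-actinin-4) had 20543 ± 1196 and 21323 ± 1311 normalized counts (SD, n = 6), a log2 fold change of -0.05. Flna (filamin A), the partner of refilins, had 27667 ± 4302 and 29513 ± 3140 normalized counts (SD, n = 6), a log2 fold change of -0.10 with 5 of 6 pairs lower (paired limma, adjusted p = 0.230). The difference between groups was smaller than the SD between dishes for each of Actn1, Actn4 and Flna, but this SD includes the differences in level between pairs. In the paired model, which takes these out, the standard errors of the log2 fold changes were 0.0526, 0.0417 and 0.0417 in the same order. Rflna, the other refilin gene, is not a member and is named after its value was seen. It had 7.49 ± 5.64 normalized counts after ablation and 13.6 ± 5.91 in the control (SD, n = 6) (paired limma, adjusted p = 0.217).

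Among genes of focal adhesions, 2 had log2 fold changes above 0 and 6 below. Vcl (ENSMUSG00000021823.10, chromosome 14 from 20929398 to 21033676, plus strand), the gene of vinculin, which reinforces the link between talin and actin under tension, stood at the upper end of the list. It had 4139, 4101, 4359, 4624, 3545 and 4088 normalized counts after ablation in pairs 1, 3, 4, 5, 6 and 7. The control dishes had 3542, 3377, 4069, 3984, 3329 and 3856. All 6 ablation dishes exceeded the control of their pair, and the groups overlapped because ablation 6 lay within the control range. With means of 4143 ± 358 and 3693 ± 319 (SD, n = 6), the log2 fold change was 0.17. The standard error was 0.0704 with the library set (limma adjusted p = 0.619) and 0.0391 with the pair (adjusted p = 0.0620). The paper names Vcl among its differentially expressed genes (adjusted p under 0.05), from a DESeq2 model of the counts with a batch factor. Of its 8191 exon bases, 2090 overlap exons of Ap3m1 on the opposite strand (mean 1673 normalized counts). The libraries were stranded, but the strand setting of the count is not given in the sources used here.

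Tln1 (ENSMUSG00000028465.16, chromosome 4 from 43531519 to 43562691, minus strand) encodes talin-1, which binds integrins and recruits vinculin, and its values went the other way. The ablation dishes had 5310, 5618, 4616, 5749, 5278 and 5523 normalized counts in pairs 1, 3, 4, 5, 6 and 7, and the control dishes 5640, 6209, 5778, 6077, 5349 and 5652. All 6 pairs were lower after ablation, by little in pairs 6 and 7, and the groups overlapped. The means were 5349 ± 402 and 5784 ± 314 (SD, n = 6), a log2 fold change of -0.11 (limma adjusted p = 0.629 with the library set and 0.194 with the pair as a term). Without pair 4 the log2 fold change of Tln1 was -0.07, and with edgeR on complete pairs -0.05. Exons of Tln1 share 360 bases with Creb3 on the opposite strand.

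The remaining adhesion genes did not pass in either model. Zyx (zyxin), which gathers at strained filaments, had 3615 ± 366 normalized counts after ablation and 3932 ± 290 in the control (SD, n = 6), a log2 fold change of -0.12. Zyx was lower in 4 of 6 pairs (paired limma, adjusted p = 0.227), and edgeR on 9 libraries gave -0.07. Its exons share 236 bases with Epha1 on the opposite strand (mean 2665 normalized counts). Vasp, a filament elongation factor, Pxn and Fermt1, the gene of the integrin activator kindlin-1, had log2 fold changes of -0.06, -0.07 and -0.06, each with 5 of 6 pairs lower. Pdlim7 had 1565 ± 264 and 1767 ± 278 normalized counts (SD, n = 6), and 5 of its pairs were lower while pair 3 was higher. Fhl2, a LIM-domain cofactor and SRF target, varied most of all between pairs and had means of 993 ± 326 and 941 ± 259 (SD, n = 6), with 4 pairs higher and 2 lower.

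**Figure D4:**
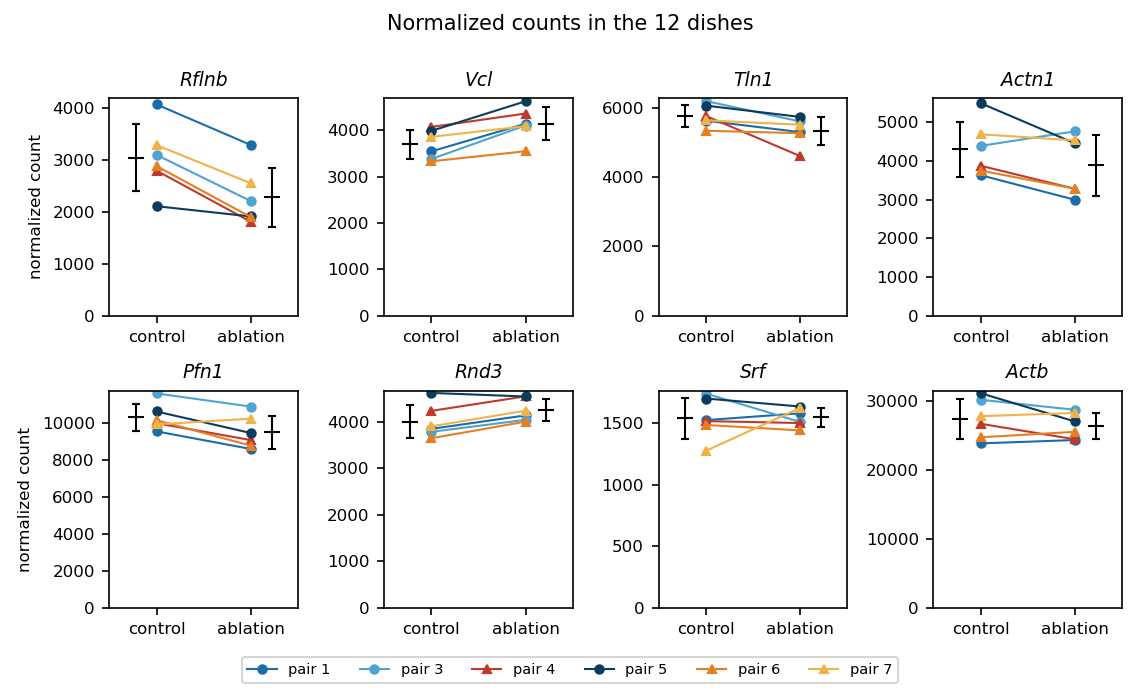
Normalized counts (y axis, from 0) of 8 genes in the 12 dishes, with lines joining the control and ablation dish of a pair. Black bars beside the points are the mean ± SD of 6 dishes. All 6 lines slope down for Rflnb and Tln1 and up for Vcl, and lines run both ways for Srf and Actb.

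For Srf and the actin genes neither model found a difference between groups in the RNA of whole organoids. Srf (ENSMUSG00000015605.6, chromosome 17 from 46548329 to 46556175, minus strand) had 1579, 1509, 1500, 1634, 1441 and 1623 normalized counts after ablation in pairs 1, 3, 4, 5, 6 and 7. In the control it had 1524, 1740, 1516, 1699, 1485 and 1275. Pairs 1 and 7 were higher and the other 4 lower, and control 7 was the lowest of the 12 dishes. The log2 fold change of Srf was 0.01 ± 0.0592 (SE of the paired model, adjusted p = 0.937 from limma), and in library set 1 alone it was -0.07.

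Actb (ENSMUSG00000029580.14, chromosome 5 from 142903115 to 142906754, minus strand) had 24366, 28755, 24475, 27063, 25554 and 28293 normalized counts after ablation. The control dishes of the same pairs had 23876, 30209, 26725, 31168, 24766 and 27834. Pairs 3, 4 and 5 were lower and pairs 1, 6 and 7 higher, and the log2 fold change was -0.05 (limma adjusted p = 0.885 with the library set and 0.566 with the pair as a term). Without pair 5 it was -0.02. For Actg1 (ENSMUSG00000062825.15, chromosome 11 from 120345690 to 120348542, minus strand), the ablation dishes had 19982, 21102, 21620, 25143, 19772 and 20160 normalized counts. Its control dishes had 20284, 21541, 22442, 24922, 18221 and 20573. Both groups were highest in pair 5, and the log2 fold change of -0.0006 (SE 0.0366 in the paired model) was above 0 with total-count scaling and with quantile normalization.

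Genes of actin turnover and branching were all 4 below 0 (51.5% of all genes) without passing the test. Pfn1 (profilin-1), which loads actin monomers onto growing ends, had 8588 to 10876 normalized counts after ablation and 9538 to 11589 without it. The log2 fold change was -0.12, with 5 of 6 pairs lower (limma adjusted p = 0.692 with the library set and 0.154 with the pair as a term). Cfl1 (cofilin-1), the severing factor, and Arpc2 had log2 fold changes of -0.04 and -0.06, both lower in 5 of 6 pairs. Cttn (cortactin), which stabilizes branches, had 6784 ± 410 and 6884 ± 357 normalized counts (SD, n = 6), and 3 pairs were lower and 3 higher. The log2 fold change of Cttn was above 0 in library set 1 alone and without pair 6.

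Tested genes of myosin II and of the proteins that line the filament had log2 fold changes below 0 without passing the test. Myh9, the heavy chain of non-muscle myosin IIA, had 14379 ± 1814 normalized counts after ablation and 15481 ± 2007 in the control (SD, n = 6), a log2 fold change of -0.11 (paired limma, adjusted p = 0.256). Without pair 4 the value of Myh9 was -0.06, and with edgeR on complete pairs -0.03. Myl12a, a regulatory light chain of the same family as Myl9, had 4609 ± 422 and 4798 ± 287 normalized counts (SD, n = 6). The tropomyosin genes Tpm1, Tpm2, Tpm3 and Tpm4 had log2 fold changes from -0.05 (Tpm2) to -0.03 (Tpm1), with paired adjusted p-values from 0.565 to 0.807 in limma. Cnn2 (calponin-2), 1 of the genes with a CArG box, had 2524 ± 490 and 2818 ± 670 normalized counts (SD, n = 6), a log2 fold change of -0.15 with 5 of 6 pairs lower, and of -0.03 with edgeR on complete pairs. For Cnn3 (calponin-3) and Tagln2 the log2 fold changes were -0.07 and -0.10. The 7 tested genes of the tropomyosin and calponin family all had log2 fold changes below 0 (51.5% of all genes), and 0 passed in either model. Tpm1 was above 0 without pair 6, Tpm2 in library set 1 alone, and Tpm4 in both of these settings.

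Both small GTPase genes of the list had log2 fold changes above 0. Rnd3, whose product loosens actin bundles, had 4001 to 4544 normalized counts after ablation and 3644 to 4618 in the control. It was higher in every pair except pair 5, with a log2 fold change of 0.09 (limma adjusted p = 0.747 with the library set and 0.220 with the pair as a term). Rhob, whose product is inducible, had 1292 ± 142 and 1220 ± 107 normalized counts (SD, n = 6), a log2 fold change of 0.08 with 5 of 6 pairs higher (paired limma, adjusted p = 0.347). Among the membrane linkers, which tie filaments to the plasma membrane, Msn (moesin) and Ezr (ezrin) had log2 fold changes of -0.08 and -0.0097. Without pair 1 Msn was at -0.04, and without pair 3 at -0.13. Ezr was above 0 with quantile normalization.

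Genes with a CArG box in the window spread around 0, and those without lay mostly below it. Of the 6 tested genes with a box, 4 had log2 fold changes above 0 (Vcl, Rnd3, Fhl2 and Srf) and 2 below (Actg1 and Cnn2), with a median of 0.03. Of the 23 tested genes searched without one, 1 was above 0 (Rhob) and 22 below, Rflnb among them, with a median of -0.06. Among all genes tested, 51.5% were below 0. Actb, Pxn and Cttn had no window and are in neither subset, with log2 fold changes of -0.05, -0.07 and -0.02. Boxes outside the window or with other letters were not searched for. The difference between the subsets was not tested, and 3 of the 6 genes with a box had no stable sign. Actg1 changed sign with the scaling, Srf in library set 1 alone and without pair 7, and Fhl2 in library set 1 alone, without pair 3 or 4 and with edgeR on recovered reads. Among the genes without a box, Tpm1, Tpm2, Tpm4 and Ezr also changed sign under at least 1 alternative.

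**Figure D5:**
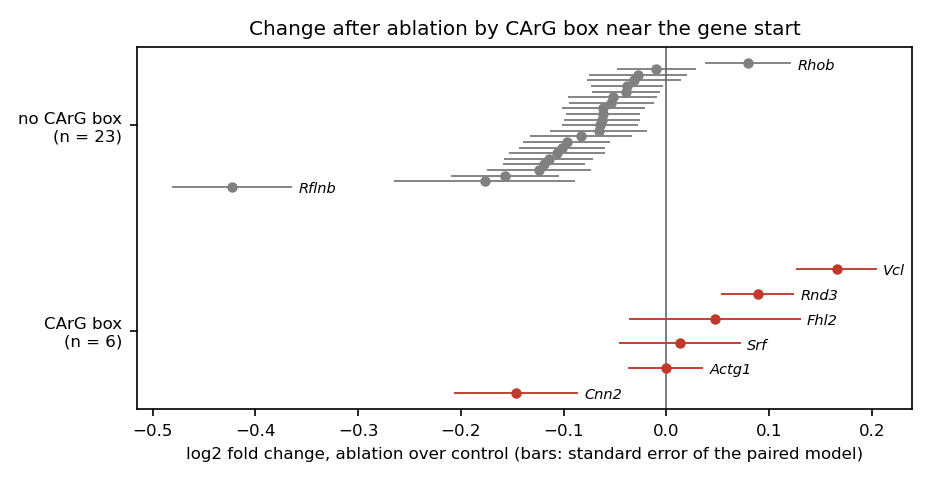
Log2 fold change after ablation (x axis) with the standard error of the paired model, for 6 tested genes with a CArG box in the promoter window (red) and 23 without (gray), each ordered by fold change. Of the red points 4 lie right of 0, and of the gray ones Rhob does.

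The response of single genes was also compared between library sets. With the pair as a term, 0 genes of the list differed at an adjusted p-value under 0.05 (0.00725% of all genes), and 2 differed at an unadjusted p-value under 0.05 (7.88% of all genes). These were Vcl, with log2 fold changes of 0.24 in set 1 and 0.09 in set 2, and Rflnb, with -0.31 and -0.53. In limma's test of the difference their unadjusted p-values were 0.0486 and 0.0493 and both adjusted p-values 0.630, and without the pair as a term the unadjusted p-values were 0.314 and 0.528.

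The level of these genes also varied between pairs. The fold range of pair means was between 1.08 (Arpc2) and 2.14 (Fhl2), with a median of 1.28. Rflnb and Cnn2 followed Fhl2 with 1.82 and 1.66. Pair 5 was the highest pair for 13 genes and pair 3 for 11, while pair 6 was the lowest for 13 and pair 1 for 10. No passage is shared by more than 2 pairs and no culture day by more than 2, so the part of passage, culture day and date in these levels was not tested.

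Upstream of SRF, 23 of 23 genes of cofactors and upstream regulators were tested, and 0 passed in either model. Log2 fold changes were above 0 for 9 and below 0 for 14, with a median of -0.03. The most abundant per kilobase were Cdc42 and Rac1, small GTPases that drive filopodia and lamellipodia, with log2 fold changes of -0.03 and -0.08. Other genes of this list are named after their values were seen, and in all 3 of the 23 were lower in 6 of 6 pairs (4.63% of all genes) and 1 was higher in 6 of 6 (5.17% of all genes). Elk4, a ternary complex factor that partners SRF, had 1251 ± 148 normalized counts after ablation and 1121 ± 79.8 in the control (SD, n = 6), with 5 of 6 pairs higher (paired limma, adjusted p = 0.138). Mkl1 and Mkl2, the genes of MRTF-A and MRTF-B, had 824 ± 46.8 and 1185 ± 111 normalized counts after ablation and 894 ± 30.4 and 1286 ± 71.1 in the control (SD, n = 6). Mkl1 was lower in 6 of 6 pairs and Mkl2 in 5 (paired limma, adjusted p = 0.184 and 0.243). Limk1, which phosphorylates cofilin, had a log2 fold change of -0.25 and was lower in 6 of 6 pairs (paired limma, adjusted p = 0.139).

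Of 30 other focal adhesion genes 27 were tested, with 11 above 0, 16 below, a median log2 fold change of -0.02 and 0 passing in either model. Lims1, whose product PINCH-1 binds integrin-linked kinase, and the adaptor gene Crk were the most abundant per kilobase, with log2 fold changes of 0.08 and 0.01. In this list 1 of 27 genes was lower in 6 of 6 pairs (4.63% of all genes) and 0 were higher in 6 of 6 (5.17% of all genes). It was Ilk, the gene of that kinase, named after its value was seen, with 2071 ± 105 and 2203 ± 98.7 normalized counts (SD, n = 6) (paired limma, adjusted p = 0.238). Of 41 other actin regulators 36 were tested, with 12 above 0, 24 below, a median of -0.03 and 0 passing in either model. Of these 36 genes, 3 were lower in 6 of 6 pairs (4.63% of all genes) and 0 were higher in 6 of 6 (5.17% of all genes). The 3 lower genes, Arpc5, Cap1 and Coro1b, are named after their values were seen and had log2 fold changes of -0.04, -0.07 and -0.12. The monomer-binding Tmsb4x (thymosin beta-4) and the severing factor Dstn (destrin) were the most abundant per kilobase, with log2 fold changes of -0.01 and 0.04.

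Immediate early targets of SRF are genes that its other cofactors, of the ternary complex family, turn on within minutes of growth factor signals. Of 8 genes, 7 were tested, 7 had log2 fold changes above 0 (48.5% of all genes) with a median of 0.22, and 0 passed in either model. None was higher in all 6 pairs. Fos and Fosb were higher in 5 pairs, and Egr1, Egr3, Ier2, Mcl1 and Nr4a1 in 4. Whether this list differed from the others was not tested. Mcl1 and Ier2, the most abundant per kilobase, had log2 fold changes of 0.11 and 0.15. Fos, Fosb and Egr1, proteins of growth factor responses, are named after their values were seen. Fos had 384 ± 118 normalized counts after ablation and 291 ± 101 in the control (SD, n = 6) (paired limma, adjusted p = 0.292), and Fosb 52.6 ± 10.5 and 39.0 ± 12.8 (adjusted p = 0.185). For Egr1 the SD between control dishes, 546 normalized counts around a mean of 854, was larger than the difference from the 887 ± 176 after ablation (n = 6).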

How the data were processed

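Normalized counts of 12 libraries were used. They are signal values as deposited: the authors counted reads on GRCm38.p6 genes and scaled every library with a DESeq2 size factor. The authors' own DESeq2 comparison is in the same table as log2 fold changes, score columns (standard errors and Wald statistics) and p-values as deposited, and was not used. The low values of each library, which were the ones checked, were whole multiples of 1 step (100% within 0.1). Whole reads were taken back for 9 libraries (23631212 to 29775699 reads). Ablation 3, ablation 4 and control 4 also met this check but were left out because their steps lay near 1 (0.999, 0.99 and 1.01). Log2(value + 1) was fitted with limma 3.58.1 in R 4.3.3 with condition and library set, with trended and robust variances, over genes reaching 10 normalized counts in 6 or more libraries. P-values were adjusted by Benjamini-Hochberg over all of them, with a threshold of 0.05. The batch in the study's model is not named, and library set stood in for it. A paired model replaced the set with the pair: deviations of same-numbered samples correlated across genes with r = 0.62, 0.49, 0.21, 0.32, 0.38 and 0.33 (pairs 1, 3, 4, 5, 6 and 7), against a mean of -0.08 and a highest value of 0.29 for other numbers, so pair 4 did not stand above all of them. edgeR 4.0.16 on recovered reads was an alternative. Members, gene lists, markers and tests were chosen with earlier results of these data known, Vcl among them. Dish values are given for Vcl, Srf, actins, called members and members with all pairs in 1 direction and an unadjusted paired p under 0.05. Of the lists, the 2 most abundant genes and any called are named, and others are said to be chosen later. Exon lengths are the authors' own, as deposited.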

Additional observations from a re-analysis of the deposited data

Results flagged for a closer look

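Among 64 groups of 6 dishes, 2 held a dish far from the others of its group, and chance gives about 1 in 20. Actg1 had 25143 normalized counts in ablation 5, above 19772 to 21620 in the other ablation dishes, and control 5 was the highest control dish as well (24922). Cttn had 7560 normalized counts in control 5, above 6588 to 6945 in the other control dishes, and ablation 5 was its highest ablation dish with 7342.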

How the results depend on the processing

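The number of the 32 genes called was 0 in the library set model and 1 (Rflnb) with the replicate block, also with total-count scaling, quantile normalization or library set 2 alone. It was 2 (Rflnb and Vcl) with the block and all genes with any count, where Vcl (log2 fold change 0.17) reached an adjusted p of 0.0355. Without a pair in turn it was 0 to 1. The block changed no other call. On recovered reads edgeR called 0 of the genes, with Rflnb at an adjusted p of 0.802 in 9 libraries and 0.115 in complete pairs, and with the block and plain eBayes it was 0. Over 28 alternatives 24 of 32 genes kept their sign, and between 24 and 27 genes were below 0, an alternative added after seeing the data. The others had log2 fold changes near 0 and turned as follows, and the cause was not tested. In library set 1 Srf was -0.070, Cttn 0.014, Fhl2 -0.0060, Tpm2 0.0085 and Tpm4 0.016. In library set 2 Actg1 was 0.012 and Ezr 0.020. Actg1 was 0.0071 with total-count scaling and 0.0048 with quantile normalization, and Ezr 0.0047 with the latter, in both models. With edgeR, Actg1 was 0.027 in 9 libraries and 0.023 in complete pairs, Fhl2 -0.049 and -0.091, and Ezr 0.029 in the pairs. Without a pair in turn, log2 fold changes ran from -0.024 to 0.010 for Actg1, -0.013 to 0.13 for Fhl2, -0.054 to 0.057 for Srf, -0.037 to 0.00039 for Cttn, -0.068 to 0.0072 for Tpm1, -0.060 to 0.014 for Tpm4 and -0.025 to 0.016 for Ezr. Over all alternatives these 8 genes lay between -0.11 and 0.13. Of the 24 genes that kept their sign, 19 moved by over 1.5 times under at least 1 alternative, and the cause was not tested. Without pair 1 these were Msn (-0.042) and Pdlim7 (-0.11), without pair 3 Msn (-0.13) and Pdlim7 (-0.27), without pair 4 Actn4 (-0.029), Myh9 (-0.060), Pxn (-0.042) and Tln1 (-0.073), without pair 5 Actb (-0.020) and Cnn3 (-0.029), and without pair 6 Actn4 (-0.083) and Cnn3 (-0.043). Tpm2 was -0.079 without pair 1, -0.018 without pair 6 and -0.034 without pair 7. In library set 1 alone Actb was -0.082, Actn4 -0.084, Cnn3 -0.11, Fermt1 -0.014, Myl12a -0.11 and Rnd3 0.059. In library set 2 alone Actb was -0.019, Actn4 -0.023, Cnn3 -0.022, Fermt1 -0.11, Myl12a -0.016, Tagln2 -0.060, Vasp -0.038, Vcl 0.092 and Zyx -0.075. Quantile normalization put Actb at -0.022. With edgeR on 9 libraries Actn4 was -0.029, Cfl1 -0.065, Cnn3 -0.15, Fermt1 -0.041, Msn -0.14, Myl12a -0.096, Pxn -0.042, Rhob 0.13, Tln1 -0.076, Tpm3 -0.059 and Zyx -0.068. With edgeR on complete pairs Actb was -0.023, Actn4 -0.013, Cfl1 -0.024, Cnn2 -0.033, Cnn3 -0.13, Myh9 -0.027, Pdlim7 -0.28, Pxn -0.025, Tln1 -0.052 and Zyx -0.076. The 6 pairs limit the precision.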
